A study of Mus musculus with 35 samples.

Results

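Ch25h, Cyp7b1, Hsd3b7 and Gpr183 form the oxysterol route that makes, breaks down and senses 25-hydroxycholesterol and its products. They are 4 of the 15617 genes with a symbol tested on these arrays, and 4 of 25517 features tested in all. The members were chosen by name: every probe whose RefSeq accession maps to one of the symbols, which gave 1 probe per gene (A_55_P2008987 for Ch25h, A_51_P461429 for Cyp7b1, A_55_P1982762 for Hsd3b7 and A_55_P2116385 for Gpr183). The choice was made with results of these data known, among them the change of Ch25h at 54 µg of NRCWE-045, so the changes against control are given as a description: no p-value is printed for them, and the counts of calls given beside the background support nothing. All 4 genes passed the filter on dim probes.

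The data are 2-colour arrays of mouse lung RNA from a study that ranks nanomaterials by their potency to perturb lung pathways. The 7 groups hold 5 arrays each, 35 in all: NRCWE-043, NRCWE-044 and NRCWE-045 at 54 µg per animal, the same 3 materials at 18 µg, and control mice labelled 0 µg. All groups were female C57BL/6 mice that entered the study at 5 to 7 weeks of age. Treated mice received 1 intratracheal instillation in 40 µl, and lungs were taken after 24 h. What the control mice received is not stated in the sources used here, and neither is what the 3 codes stand for. The labels name no genetic change in any group, and they do not say whether the 5 RNA samples of a group are 5 separate mice, so a p-value here speaks only of the spread between these samples, which may be technical.

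Oxysterols are oxidised forms of cholesterol. Ch25h, an enzyme of the endoplasmic reticulum that macrophages switch on after interferon or Toll-like receptor signals, turns cholesterol into 25-hydroxycholesterol, which restrains SREBP2-driven cholesterol synthesis and activates liver X receptors (LXR). Cyp7b1 adds a further hydroxyl group, which yields the ligand of Gpr183 (EBI2), a receptor that positions B cells, dendritic cells and T cells in lymphoid tissue, and Hsd3b7 converts that ligand into a form the receptor does not bind. In lung, the enzymes are known from macrophages and structural cells of the airways.

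Every value below is a log2 ratio of lung RNA over a universal reference RNA of 11 mouse cell lines hybridised on the same array, so a ratio of a gene can be compared between arrays but not with that of another gene. At 24 h, Ch25h and Cyp7b1 were higher at 54 µg of each of the 3 materials than in control lungs, Ch25h by 1.34 to 1.40 and Cyp7b1 by 1.33 to 1.87 on the log2 scale. Gpr183 was higher at 54 µg of NRCWE-043, by 0.67, and Hsd3b7 overlapped with control in every treated group. In bulk lung RNA, a change in the number of cells that express a gene and a change in RNA per cell cannot be told apart.

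The 250 bases before the gene start of Ch25h and of Hsd3b7 are shown because each holds 1 match to 1 of the 4 motifs searched. They come from RefSeq on GRCm38.p6, read 5′ to 3′ on the gene's strand, and the capitals mark the match.
Ch25h, chr19:34475149-34475398, minus strand: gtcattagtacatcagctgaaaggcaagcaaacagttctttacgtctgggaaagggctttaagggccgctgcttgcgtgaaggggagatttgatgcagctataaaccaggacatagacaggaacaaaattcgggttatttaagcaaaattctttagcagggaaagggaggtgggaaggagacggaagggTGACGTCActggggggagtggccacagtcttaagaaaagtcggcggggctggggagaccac
Hsd3b7, chr7:127800359-127800608, plus strand: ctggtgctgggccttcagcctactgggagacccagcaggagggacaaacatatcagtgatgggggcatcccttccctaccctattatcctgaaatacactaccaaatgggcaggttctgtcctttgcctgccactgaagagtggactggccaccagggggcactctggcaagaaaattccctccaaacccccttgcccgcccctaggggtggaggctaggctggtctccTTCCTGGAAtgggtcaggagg
In Ch25h the capitals are TGACGTCA, the palindromic ATF/CREB site, 61 to 54 bases before the start. This motif is held by 1.55% of the 32851 promoter windows of the same length. In Hsd3b7 they are TTCCTGGAA, a match to TTCNNNGAA, the gamma-activated site of STAT factors, 21 to 13 bases before the start, and 7.02% of the windows hold that motif. The core of the interferon-stimulated response element (GAAA, 2 free bases, GAAA) was searched on both strands too, as were these motifs and the LXR direct repeat (AGGTCA, 4 free bases, AGGTCA). These 2 are held by 2.98% and 0.0152% of the windows, and neither was found in the windows of Ch25h, Hsd3b7 or Gpr183. The window of Gpr183 held none of the 4 motifs, and no match overlapped another. Cyp7b1 is named only.

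Ch25h, which makes 25-hydroxycholesterol, was well above background on 35 of 35 arrays, with Cy5 intensities of 210 to 1828. At 54 µg of NRCWE-045 its log2 ratios were 2.69, 2.90, 2.72, 3.30 and 2.96. With NRCWE-044 at 54 µg they were 2.86, 3.24, 2.41, 2.54 and 3.69, and at 54 µg of NRCWE-043 they were 3.01, 3.25, 2.59, 2.93 and 2.68. Control lungs had 1.60, 1.21, 1.34, 2.51 and 1.09. The array at 2.51, control sample 29, lies apart from the other 4 controls, and it is the only one that reaches into a 54 µg group, that of NRCWE-044, where 1 array read 2.41. The groups of NRCWE-043 and NRCWE-045 at 54 µg did not overlap with control.

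Ch25h averaged 2.91 ± 0.24 at 54 µg of NRCWE-045, 2.95 ± 0.52 at 54 µg of NRCWE-044 and 2.89 ± 0.26 at 54 µg of NRCWE-043, against 1.55 ± 0.57 in control lungs (SD, n = 5 each). The changes were 1.36 (95% interval 0.82 to 1.91) for NRCWE-045, 1.40 (0.85 to 1.94) for NRCWE-044 and 1.34 (0.79 to 1.88) for NRCWE-043, which are 2.57-fold, 2.64-fold and 2.53-fold. In each of these 3 groups, 5 of 5 arrays lay above the control mean. Without control sample 29 the changes were larger, 1.60 for NRCWE-045 and 1.64 for NRCWE-044.

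At 18 µg, Ch25h averaged 2.10 for NRCWE-045, 1.20 for NRCWE-044 and 2.26 for NRCWE-043. The ratios were 2.35, 1.88, 2.63, 2.14 and 1.48 for NRCWE-045 and 1.57, 3.08, 1.99, 2.12 and 2.53 for NRCWE-043. For NRCWE-044 they were 0.65, 1.50, 1.13, 1.01 and 1.73, and this is the group with the lowest mean of the 7, 1.20 ± 0.42 (SD, n = 5). Each 18 µg group overlapped with control. The changes against control were 0.55 (0.00 to 1.09) for NRCWE-045, -0.35 (-0.89 to 0.20) for NRCWE-044 and 0.71 (0.16 to 1.25) for NRCWE-043.

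Cyp7b1, which hydroxylates 25-hydroxycholesterol further, had Cy5 intensities of 187 to 1966 and was well above background on 35 of 35 arrays. At 54 µg of NRCWE-045 its ratios were 3.81, 3.89, 3.51, 3.70 and 3.23, and at 54 µg of NRCWE-044 they were 3.78, 3.36, 4.02, 3.88 and 4.95. With NRCWE-043 at 54 µg they were 3.25, 3.24, 3.28, 3.68 and 3.82. Control lungs had 1.84, 2.10, 1.94, 2.97 and 1.77. All 15 arrays of the 54 µg groups lay above the highest control, which is again sample 29.

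Cyp7b1 averaged 3.63 ± 0.26 at 54 µg of NRCWE-045, 4.00 ± 0.58 at 54 µg of NRCWE-044 and 3.46 ± 0.28 at 54 µg of NRCWE-043, against 2.12 ± 0.49 in control lungs (SD, n = 5 each). The changes were 1.50 (0.94 to 2.07) for NRCWE-045, 1.87 (1.31 to 2.44) for NRCWE-044 and 1.33 (0.77 to 1.90) for NRCWE-043, or 2.84-fold, 3.66-fold and 2.52-fold. At 18 µg the groups overlapped with control, at 2.55 ± 0.19 for NRCWE-045, 1.92 ± 0.69 for NRCWE-044 and 2.66 ± 0.55 for NRCWE-043.

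Hsd3b7, which converts the Gpr183 ligand further, ranged from 0.06 to 1.23 over the 35 arrays, and was well above background on all of them. Its means were 0.87 ± 0.20 at 54 µg of NRCWE-045, 0.82 ± 0.26 at 54 µg of NRCWE-044 and 0.58 ± 0.12 at 54 µg of NRCWE-043, against 0.95 ± 0.27 in control lungs (SD, n = 5 each). Each of the 6 treated means lay below that of control, and each treated group overlapped with it. The largest differences were those of NRCWE-043, -0.37 (-0.71 to -0.04) at 54 µg and -0.46 (-0.80 to -0.13) at 18 µg, and the first of these was 0.016 when arrays were centred on their median in place of loess normalization. Neither was called over all features, but the change at 18 µg was called lower in 3 of 23 alternatives (the slide as a block, without control sample 7, and without control samples 7 and 29) and that at 54 µg in 1 of 23 (the slide as a block). Within slides that also held controls, Hsd3b7 differed by -0.65 and -0.39 at 18 µg of NRCWE-043 (2 slides). At 54 µg the differences were -0.55 and -0.24 for NRCWE-043 (2 slides), -0.31 to -0.18 for NRCWE-044 (3 slides) and -0.49 to 0.02 for NRCWE-045 (4 slides).

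Gpr183, the receptor, was the dimmest of the 4 probes in Cy5, at intensities of 89.0 to 327.5, and was well above background on 30 of 35 arrays. The other 5 arrays are 1 control, 1 of NRCWE-043, 2 of NRCWE-044 and 1 of NRCWE-045 at 18 µg, so no group lacks it on every array. Its ratios with NRCWE-043 at 54 µg were 0.89, 1.17, 0.75, 1.53 and 1.11, against 0.22, 0.75, 0.30, 0.71 and 0.13 in control lungs. All 5 treated arrays lay above the control mean, and the lowest of them reaches the highest control. The means were 1.09 ± 0.30 at 54 µg of NRCWE-043 and 0.42 ± 0.29 in control lungs (SD, n = 5 each), a change of 0.67 (0.34 to 0.99). The changes were 0.20 (-0.13 to 0.52) at 54 µg of NRCWE-045 and 0.31 (-0.01 to 0.64) at 54 µg of NRCWE-044.

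**Figure D1:**
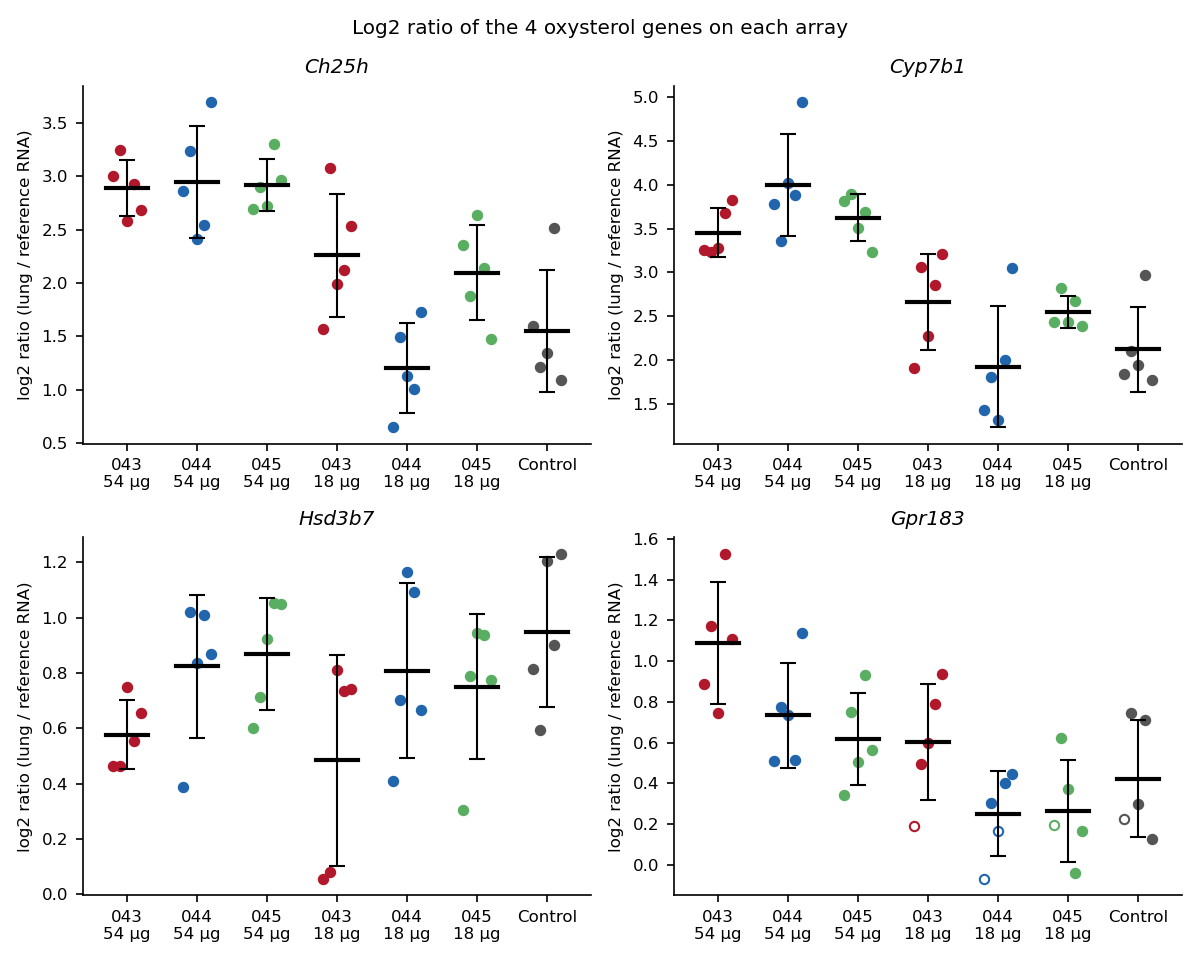
Log2 ratio of lung over reference RNA (vertical axes) of Ch25h, Cyp7b1, Hsd3b7 and Gpr183 on each of the 35 arrays, with the 54 µg groups on the left, then the 18 µg groups and control; lines are means, bars are SD over 5 arrays, and open points are arrays on which the probe was not well above background. Ch25h and Cyp7b1 stand highest in the 54 µg groups, with means of 2.89 to 2.95 and 3.46 to 4.00 against 1.55 and 2.12 in control lungs.

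A feature was called when its adjusted p in the limma fit over all 25517 features was under 0.05 (Benjamini-Hochberg within each comparison). Against control, 7 of the 24 member changes were called and all 7 were higher: Ch25h and Cyp7b1 at 54 µg of each material, and Gpr183 at 54 µg of NRCWE-043. Of all features, 0.325% were called at 54 µg of NRCWE-045 (0.29% higher and 0.0353% lower), 5.99% at 54 µg of NRCWE-044 (3.94% higher and 2.05% lower) and 10.3% at 54 µg of NRCWE-043 (5.36% higher and 4.93% lower). At 18 µg the shares were 0% for NRCWE-045, 0% for NRCWE-044 and 4.22% for NRCWE-043 (1.35% higher and 2.86% lower). Higher calls made up 65.8% of the calls at 54 µg of NRCWE-044 (53.6% with the deposited values, 53.3% with Cy5 alone, 95.3% with median centring), 52.1% at 54 µg and 32.1% at 18 µg of NRCWE-043 (66.9% and 13% with median centring). Where limma called 0 features, 711 were under an unadjusted p of 0.05 for NRCWE-045 and 2767 for NRCWE-044. Groups that did not overlap with control and lay above it made up 1.68% of features at 54 µg of NRCWE-045, 3.77% at 54 µg of NRCWE-044 and 4.5% at 54 µg of NRCWE-043. Nothing is read from these counts about the members, since results of these comparisons were known when they were chosen, and the 6 comparisons share 1 set of controls.

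The 2 calls at 54 µg of NRCWE-045 depended on single arrays. They were lost for both genes, one at a time, without control samples 2, 7 or 30 or without treated samples 8 or 14, and for Ch25h also without control sample 15 or treated sample 32. The changes themselves stayed at 1.25 to 1.60 for Ch25h and 1.42 to 1.71 for Cyp7b1 when any 1 array was left out. The arrays lay on 7 slides, of which 4 held controls, and within slides the change of Ch25h was 0.21 to 2.21 for NRCWE-045 at 54 µg (4 slides), 1.45 to 1.90 for NRCWE-044 (3 slides) and 1.41 to 1.60 for NRCWE-043 (2 slides). That of Cyp7b1 was 0.54 to 1.95 for NRCWE-045, 1.42 to 2.11 for NRCWE-044 and 1.29 to 1.54 for NRCWE-043. Both lowest values are from slide 5, where control sample 29 is the only control. For Gpr183 at 54 µg of NRCWE-043 the values within slides were 0.40 and 0.84.

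**Figure D2:**
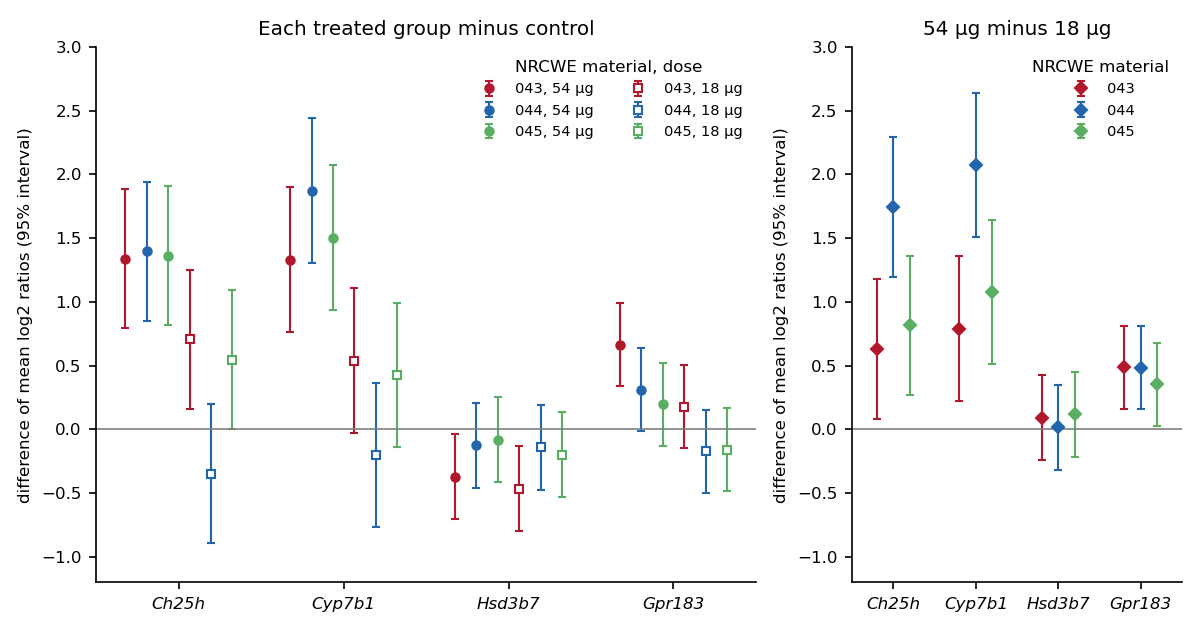
Log2 change of each member with its 95% interval: left, each treated group against control; right, 54 µg against 18 µg of each material. Intervals of Ch25h, Cyp7b1 and Gpr183 lie above 0 in all 3 dose comparisons, while those of Hsd3b7 cross 0 in all 3. Of these dose changes, only those of Ch25h and Cyp7b1 for NRCWE-044 passed the threshold. Intervals of Ch25h and Cyp7b1 at 54 µg against control lie above 0 for all 3 materials. The changes against control are a description, since the members were chosen with results of those comparisons known.

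The comparison of 54 µg with 18 µg of one material leaves out the controls. Of 12 member changes, 2 were called, both for NRCWE-044. Ch25h was 2.95 ± 0.52 at 54 µg and 1.20 ± 0.42 at 18 µg of NRCWE-044 (SD, n = 5 each), a change of 1.75 (1.20 to 2.29), 3.35-fold, with an adjusted p of 0.000105 in limma. Cyp7b1 was 4.00 ± 0.58 at 54 µg and 1.92 ± 0.69 at 18 µg (SD, n = 5 each), a change of 2.07 (1.51 to 2.64), 4.21-fold, with an adjusted p of 2.28e-05 in limma. For both genes the groups did not overlap, as for 3.69% of all features in the higher direction, and 6.48% of features were called. The 2 genes ranked 56th and 17th of 25517 by p. Since the members were chosen with earlier results of these arrays known, these tests are not independent of that choice. The same holds for the other dose comparisons and the comparisons between materials below.

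For NRCWE-045 the dose change was 0.82 (0.27 to 1.36) for Ch25h and 1.08 (0.51 to 1.64) for Cyp7b1. Neither passed the threshold (limma, adjusted p = 1.00 and 0.941), although the 54 µg and 18 µg groups did not overlap for either gene, as for 0.643% of all features. In that comparison limma called 0% of features, 971 were under an unadjusted p of 0.05, and Cyp7b1 ranked 10th and Ch25h 100th by p. In a fit on the compared groups alone Cyp7b1 passed (limma, adjusted p = 0.0167). The change of Ch25h at 54 µg of NRCWE-045 was known when the members were chosen. These ranks, overlaps and p-values reuse those arrays, so they are a description and not support. For NRCWE-043 the dose change was 0.63 (0.08 to 1.18) for Ch25h and 0.79 (0.22 to 1.36) for Cyp7b1, with limma adjusted p of 0.252 and 0.157, where 1.17% of features were called. Cyp7b1 did not overlap between the doses of NRCWE-043, as for 1.67% of features. Within slides the dose change of Ch25h was 0.26 to 1.24 for NRCWE-045 (3 slides), 1.04 to 2.21 for NRCWE-044 (3 slides) and 0.17 to 1.44 for NRCWE-043 (4 slides), and that of Cyp7b1 was 1.12 to 1.45, 1.49 to 2.36 and 0.17 to 1.34 in the same order.

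The dose changes of Gpr183 were 0.35 (0.03 to 0.68) for NRCWE-045, 0.48 (0.16 to 0.81) for NRCWE-044 and 0.49 (0.16 to 0.81) for NRCWE-043, and none passed the threshold (limma, adjusted p = 1.00, 0.0627 and 0.125). For NRCWE-044 its groups did not overlap, with 0.51 to 1.14 at 54 µg and -0.07 to 0.45 at 18 µg, as for 3.69% of all features in the higher direction. At 18 µg of NRCWE-044 the probe was well above background on only 3 of 5 arrays. The dose change of NRCWE-044 passed without background correction (limma, adjusted p = 0.0395) and without sample 23 or sample 31 (adjusted p = 0.0465 and 0.0489). That of NRCWE-045 was -0.000116 when the Cy5 channel was used alone. In its 18 µg group, sample 25 had a reference (Cy3) intensity of 247.5 for Gpr183, against 57 to 91 on the other arrays. This array also had the highest Cy5 intensity, 327.5, and a ratio of -0.04. Within the 3 slides that held both doses, none of which held sample 25, the dose change of NRCWE-045 was 0.15 to 0.37. The part of this array in the value with Cy5 alone was not tested. Hsd3b7 differed between doses by 0.12 (-0.22 to 0.45), 0.02 (-0.32 to 0.35) and 0.09 (-0.24 to 0.43), none of which passed, for NRCWE-045, NRCWE-044 and NRCWE-043.

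Between materials at the same dose, 24 member differences were compared and 1 was called. At 18 µg, Ch25h was lower for NRCWE-044, at 1.20 ± 0.42, than for NRCWE-043, at 2.26 ± 0.57 (SD, n = 5 each), by -1.06 (-1.60 to -0.51), with a limma adjusted p of 0.00886. Within 4 slides that difference was -1.58 to -0.75, and 10.9% of all features were called in the comparison. With median centring the difference of Ch25h was -1.02 and did not pass (limma, adjusted p = 0.0981). Cyp7b1 differed by -0.74 (-1.31 to -0.18) between the same groups and did not pass (limma, adjusted p = 0.0841), though it did with array weights (adjusted p = 0.00807) and without sample 5 or 23 (0.0288 and 0.00859). Gpr183 differed by -0.35 (-0.68 to -0.03) and did not pass either (limma, adjusted p = 0.163).

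At 18 µg, NRCWE-045 was above NRCWE-044 by 0.89 (0.35 to 1.44) for Ch25h and 0.63 (0.06 to 1.20) for Cyp7b1, and neither passed (limma, adjusted p = 0.125 and 0.328, with 0.455% of features called). NRCWE-045 and NRCWE-043 differed at 18 µg by -0.16 (-0.71 to 0.39) for Ch25h and -0.11 (-0.68 to 0.45) for Cyp7b1, in a comparison that called 8.56% of features. These intervals hold differences in either direction, so the materials are not shown to act alike.

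At 54 µg the 3 materials lay within 0.06 of each other in mean Ch25h. The differences were -0.03 (-0.58 to 0.51) for NRCWE-045 against NRCWE-044, 0.02 (-0.52 to 0.57) for NRCWE-045 against NRCWE-043 and 0.06 (-0.49 to 0.61) for NRCWE-044 against NRCWE-043. Cyp7b1 differed by -0.37 (-0.94 to 0.20), 0.17 (-0.39 to 0.74) and 0.54 (-0.02 to 1.11) in the same order. Gpr183 was lower at 54 µg of NRCWE-045, at 0.62 ± 0.23, than at 54 µg of NRCWE-043, at 1.09 ± 0.30 (SD, n = 5 each), by -0.47 (-0.79 to -0.15), which did not pass (limma, adjusted p = 0.0861) but did with array weights, without background correction and without sample 16 (adjusted p = 0.0222, 0.0386 and 0.0446). The share of all features called in these comparisons was 0% for NRCWE-045 against NRCWE-044, where 1539 were under an unadjusted p of 0.05 in limma, 5.39% for NRCWE-045 against NRCWE-043 and 7.64% for NRCWE-044 against NRCWE-043.

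Whether the dose effect itself differs between materials was tested as a difference of dose changes, and 0 of 12 were called. For NRCWE-044 against NRCWE-043 it was 1.11 (0.34 to 1.89) for Ch25h and 1.28 (0.48 to 2.08) for Cyp7b1 (limma, adjusted p = 0.999 for both). For NRCWE-045 against NRCWE-044 it was -0.93 (-1.70 to -0.16) and -0.998 (-1.80 to -0.20) (limma, adjusted p = 0.997 for both), and for NRCWE-045 against NRCWE-043 0.18 (-0.59 to 0.96) and 0.29 (-0.52 to 1.09). Over all features limma called 0% in each of these 3 tests, with 818, 1144 and 917 features under an unadjusted p of 0.05.

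In order of group means, both Ch25h and Cyp7b1 ran from NRCWE-044 at 54 µg through NRCWE-045 and NRCWE-043 at 54 µg, NRCWE-043 and NRCWE-045 at 18 µg and control to NRCWE-044 at 18 µg. For Ch25h, 2 of the 6 gaps between neighbours were wider than the pooled SD of 0.45: that between NRCWE-043 at 54 µg and NRCWE-043 at 18 µg, 0.63, and that between NRCWE-045 at 18 µg and control, 0.55. For Cyp7b1 only the first of these gaps, 0.79, was wider than the pooled SD of 0.47. For Gpr183 it was only the gap of 0.35 between NRCWE-043 and NRCWE-044 at 54 µg, the 2 highest groups, against a pooled SD of 0.26. No gap was wider than the pooled SD for Hsd3b7, whose highest mean was that of control and whose lowest was that of NRCWE-043 at 18 µg.

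Arrays of the same group also varied together in these genes. After the group means were removed, Cyp7b1 and Gpr183 correlated over the 35 arrays at r = 0.60 (permutation within groups, p = 0.00016, adjusted 0.00096 over 6 pairs) and rho = 0.61 (adjusted 0.002). Ch25h and Gpr183 correlated at r = 0.49 (permutation p = 0.008, adjusted 0.016) and rho = 0.48 (adjusted 0.027). Ch25h and Cyp7b1 correlated at r = 0.56 (permutation p = 0.0037, adjusted 0.011) and rho = 0.38 (permutation p = 0.044, adjusted 0.089). Without the 2 arrays farthest from the median of the first gene, r was 0.56, 0.52 and 0.46 for these pairs.

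When slide means were removed too, r was 0.55 for Cyp7b1 and Gpr183 and 0.58 for Ch25h and Cyp7b1, while it was 0.36 for Ch25h and Gpr183 (permutation, adjusted p = 0.091). Hsd3b7 showed r of -0.04 with Ch25h, -0.04 with Cyp7b1 and 0.19 with Gpr183 (permutation, adjusted p = 0.87, 0.87 and 0.48). These 3 values depended on the setting. After median centring they were 0.55, 0.41 and 0.45, and all passed (permutation, adjusted p = 0.0042, 0.037 and 0.012). With slide means removed, Cyp7b1 and Hsd3b7 had r = -0.51 and passed (permutation, adjusted p = 0.011).

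**Figure D3:**
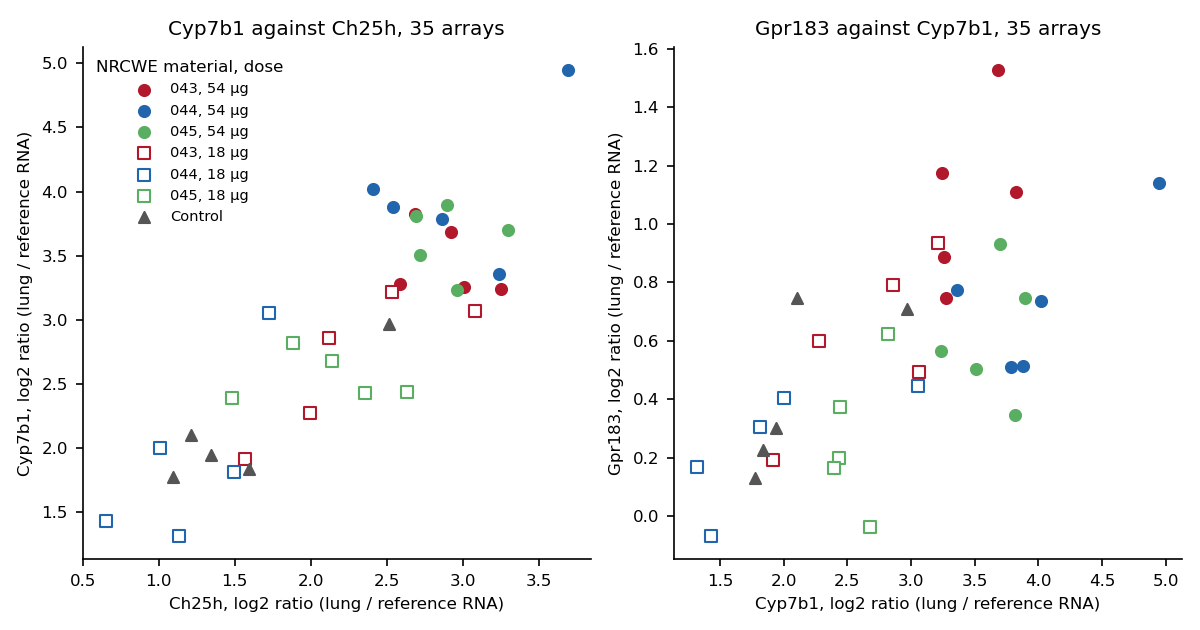
Log2 ratios of Cyp7b1 against Ch25h (left) and of Gpr183 against Cyp7b1 (right), 1 point per array for 35 arrays, coloured by group. The 54 µg arrays lie at the upper right of the left panel, and control sample 29 lies above the other 4 controls in Ch25h (2.51) and Cyp7b1 (2.97).

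By Pearson correlation of the log2 ratio over all 35 arrays, group differences included, the features most like Ch25h were Il4i1 (r = 0.90), Il1b (0.90), Nubp1 (0.90), Lilrb4a (0.89) and Ccl7 (0.89). Il1b is an inflammatory cytokine, Ccl7 a chemokine for monocytes, Il4i1 an amino acid oxidase and Lilrb4a an inhibitory receptor of myeloid cells. Those most like Cyp7b1 were Cfb, complement factor B (0.92), Ly6f (0.91), Mefv, which encodes pyrin (0.90), Efemp2, an extracellular matrix protein (0.90), and Bola2 (0.90). Those most like Gpr183 were Il21r, a cytokine receptor of lymphocytes (0.86), Rgs14 (0.83), Tnfsf14 (0.83), Slco4c1 (0.83) and Coro1a, an actin-binding protein of leukocytes (0.82). For Hsd3b7 they were Unc45a (0.89), Adgre5 (0.88), Card10 (0.88), Ppp1r13b (0.88) and Paf1 (0.86). These values describe shared group means, slides and scaling as well as shared levels, and carry no test.

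The rest of the pathway was described with 5 lists written by known role, of which 71 genes were tested. These lists and the marker lists below were chosen with earlier results of these data known. The adjusted p-values of their genes are therefore a description and not independent support. Over the 5 lists, 4 genes rose and 0 fell at 54 µg of NRCWE-045, 14 rose and 5 fell at 54 µg of NRCWE-044, 14 rose and 4 fell at 54 µg of NRCWE-043, and 7 rose and 1 fell at 18 µg of NRCWE-043. In the same order, 0.29%, 3.94%, 5.36% and 1.35% of all features were called higher. Those called lower were 0.0353%, 2.05%, 4.93% and 2.86%. At 18 µg of NRCWE-045 and of NRCWE-044, limma called 0 of the 71. The median of all features was 0.01 in each 54 µg comparison, and it moved to 0.12 for NRCWE-043 when arrays were centred on their median in place of loess.

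Among the other enzymes of oxysterols, 7 of 12 were tested. Hsd11b1, a steroid reductase that also acts on oxysterols, fell at 54 µg of NRCWE-043 by 0.86 (limma, adjusted p = 0.00139) and at 18 µg by 0.71 (adjusted p = 0.0156). Cyp39a1, which hydroxylates an oxysterol made in the brain, fell at 54 µg of NRCWE-044 by 0.78 (limma, adjusted p = 0.0295) and was higher at 18 µg of NRCWE-043 by 1.09 (adjusted p = 0.00308). The call of Cyp39a1 at 54 µg of NRCWE-044 was kept in 14 of 23 alternatives. That of Hsd11b1 at 18 µg of NRCWE-043 was kept in 17 of 23. No enzyme passed at 54 µg of NRCWE-045, and the 2 largest differences were -0.55 for Cyp39a1 and 0.21 for Sult2b1, a sulfotransferase of oxysterols. The list medians were -0.04, 0.00 and -0.12 at 54 µg of NRCWE-045, NRCWE-044 and NRCWE-043, and the first and the third were above 0 after median centring, at 0.01 and 0.03.

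Of the receptors and binding proteins of oxysterols, 20 of 21 were tested, and 1 passed: Osbpl5, a lipid transfer protein, fell at 54 µg of NRCWE-044 by 0.42 (limma, adjusted p = 0.036). That call was kept in 13 of 23 alternatives. Among those that did not pass, Rora, a nuclear receptor that binds sterols, differed by -0.34 at 54 µg of NRCWE-045, and Osbpl2, a lipid transfer protein, by -0.34 at 54 µg of NRCWE-043. The medians were -0.05, -0.11 and -0.05 at 54 µg of NRCWE-045, NRCWE-044 and NRCWE-043, and those of NRCWE-045 and NRCWE-043 were 0.03 and 0.24 after median centring.

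LXR target genes, which activated liver X receptors raise, were tested for 12 of 14. Abca1, the exporter of cholesterol to apolipoprotein A-I, fell by 0.90 at 54 µg of NRCWE-044 (limma, adjusted p = 0.00259) and by 0.60 at 54 µg of NRCWE-043 (adjusted p = 0.0319). Abcg1, which exports cholesterol to lipoprotein particles, fell by 0.75 at 54 µg of NRCWE-044 (limma, adjusted p = 0.00433) and by 0.57 at 54 µg of NRCWE-043 (adjusted p = 0.0219). For NRCWE-043 the call of Abca1 was kept in 14 of 23 alternatives and that of Abcg1 in 16 of 23. Smpdl3a, a phosphodiesterase, fell at 54 µg of NRCWE-044 by 0.46 (limma, adjusted p = 0.0114), and Apoe, the apolipoprotein of macrophages, fell at 54 µg of NRCWE-043 by 0.58 (adjusted p = 0.0189). So 3 of 12 fell and 0 rose in each of these groups, where 2.05% (NRCWE-044) and 4.93% (NRCWE-043) of all features were called lower. None passed at 54 µg of NRCWE-045, with -0.62 for Abca1 and -0.55 for Scd1, a fatty acid desaturase. The medians of the list were -0.23, -0.32 and -0.37 for NRCWE-045, NRCWE-044 and NRCWE-043 at 54 µg. After median centring they were -0.13, -0.33 and -0.08, and no LXR target passed.

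Of 12 alveolar macrophage markers, 0 passed at 54 µg of NRCWE-045 (median -0.09), 2 rose (Car4 and Mrc1) and 1 fell (Fabp1) at 54 µg of NRCWE-044 (median -0.05), and 4 fell (Pparg, Ear1, Ear2 and Krt79) at 54 µg of NRCWE-043 (median -0.35). Their scores, log2 ratios averaged over the list, were 3.87 to 4.48, 4.02 to 4.60 and 3.69 to 4.39 in these groups, against 4.04 to 4.46 in control lungs. Over all features, 0.29%, 3.94% and 5.36% were called higher in these groups, and 0.0353%, 2.05% and 4.93% lower. Of 3 eosinophil markers tested, 2 (Prg2 and Ccr3) rose at 54 µg of NRCWE-044, and 0 passed at 54 µg of NRCWE-045 or NRCWE-043. The part of these cells in the changes of LXR targets was not tested.

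SREBP2 pathway genes, the enzymes and regulators of cholesterol synthesis, were tested for 19 of 20, and those that passed all rose: 2 at 54 µg of NRCWE-045, 7 at 54 µg of NRCWE-044, 10 at 54 µg of NRCWE-043 and 6 at 18 µg of NRCWE-043. The shares of all features called higher were 0.29%, 3.94%, 5.36% and 1.35% in these groups. Idi1, an isomerase early in sterol synthesis, rose in each of these groups, by 0.64, 0.69, 0.79 and 0.60 (limma, adjusted p = 0.0238, 0.0011, 0.000136 and 0.00506). Mvd, a decarboxylase of the mevalonate pathway, rose at 54 µg by 0.57 for NRCWE-045 and 0.63 for NRCWE-044 (limma, adjusted p = 0.039 and 0.00231). Sqle, the epoxidase of squalene, rose by 0.65 for NRCWE-044 and 0.71 for NRCWE-043 at 54 µg (limma, adjusted p = 0.0469 and 0.0189). The calls of Mvd for NRCWE-045 and of Sqle for NRCWE-044 were kept in only 10 of 23 alternatives each. That of Idi1 for NRCWE-045 was kept in 14 of 23.

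Further SREBP2 pathway genes that rose were Fdps, which makes farnesyl diphosphate, at 54 µg of NRCWE-044 by 0.62 (limma, adjusted p = 0.00625), and Cyp51, a sterol demethylase, at 54 µg of NRCWE-043 by 0.68 (adjusted p = 0.0032). Hsd17b7, a sterol reductase, rose by 0.69 at 54 µg and 0.70 at 18 µg of NRCWE-043 (limma, adjusted p = 0.00462 and 0.00864). At 18 µg of NRCWE-043, Stard4, a sterol carrier, rose by 0.56 (limma, adjusted p = 0.0442), a call kept in 13 of 23 alternatives. The list medians at 54 µg were 0.34, 0.41 and 0.47 for NRCWE-045, NRCWE-044 and NRCWE-043. They were positive in all 3 groups under each of the 4 other scalings, at 0.30 to 0.40, 0.32 to 0.41 and 0.40 to 0.77. The calls were less stable. After median centring, 0, 0 and 4 genes of the list passed in these groups, and 0 at 18 µg of NRCWE-043.

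Regulators of Ch25h were tested for 13 of 15, and those that passed rose: 2 at 54 µg of NRCWE-045, 7 at 54 µg of NRCWE-044 and 4 at 54 µg of NRCWE-043. The shares of all features called higher were 0.29%, 3.94% and 5.36% in these groups. Atf3, a stress-induced factor known in mouse macrophages to repress Ch25h and to bind ATF/CREB sites, rose by 0.81, 0.54 and 0.51 in these groups (limma, adjusted p = 0.0188, 0.033 and 0.0339). Irf7, a transcription factor of the interferon response, rose by 1.58 for NRCWE-044 and 1.16 for NRCWE-043 (limma, adjusted p = 0.00014 and 0.00193). Myd88, the adaptor of Toll-like receptors, rose by 0.42, 0.59 and 0.41 (limma, adjusted p = 0.0379, 0.000137 and 0.00285). Stat2, which carries type I interferon signals, rose by 0.67 for NRCWE-044 (limma, adjusted p = 0.00362), and Ifnar2, a chain of the interferon receptor, rose by 0.47 for NRCWE-043 (adjusted p = 0.00261). The call of Atf3 was kept in 10 of 23 alternatives for NRCWE-044 and for NRCWE-043, and in 14 of 23 for NRCWE-045. That of Myd88 for NRCWE-045 was kept in 11 of 23. The list medians were 0.25, 0.35 and 0.24.

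**Figure D4:**
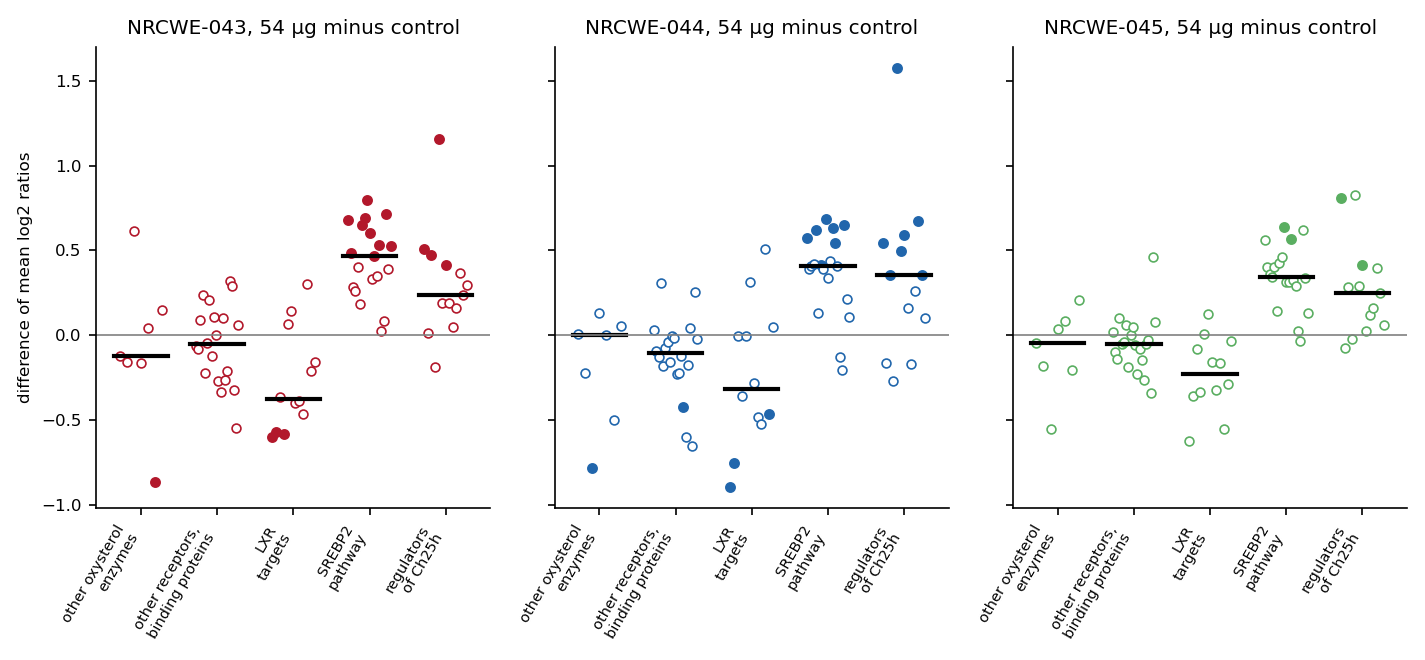
Log2 change at 54 µg against control of each tested gene in 5 lists of the oxysterol pathway, 1 panel per material; filled points passed the test and lines are list medians. LXR targets lie mostly below 0, with medians of -0.23 to -0.37, and SREBP2 pathway genes mostly above, with medians of 0.34 to 0.47.

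Lung epithelium markers such as Sftpc were high on all arrays, with scores (log2 ratios averaged over the tested markers of the list) of 4.88 to 5.88, as the label of the tissue has it. Of the 11 tested markers of monocytes and interstitial macrophages, 0 passed at 54 µg of NRCWE-045, 4 rose at 54 µg of NRCWE-044 and 5 rose at 54 µg of NRCWE-043, among them Ccr2 by 1.03 and 1.16 in the last 2 groups. The scores of this list were 1.35 to 1.75, 1.60 to 2.44 and 1.61 to 2.39 in those groups, against 1.26 to 1.43 in control lungs. Over all features, 0.29%, 3.94% and 5.36% were called higher in those groups, and 0.0353%, 2.05% and 4.93% lower. Of 10 neutrophil markers, 0 passed at 54 µg of NRCWE-045, 2 rose at 54 µg of NRCWE-044, and 5 rose and 1 fell at 54 µg of NRCWE-043, with scores of 1.20 to 2.46, 1.50 to 2.63 and 1.83 to 2.11, against 0.70 to 2.14 in control lungs. The part of these cells in the changes of Ch25h and Cyp7b1 was not tested.

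Gpr183 is known from B cells and dendritic cells, and few markers of either passed. Of 9 B cell markers 1, Fcer2a, rose at 54 µg of NRCWE-044 and of NRCWE-043, and 0 passed at 54 µg of NRCWE-045. The scores of the list were 0.91 to 1.68, 0.49 to 1.72 and 0.85 to 2.24 at 54 µg of NRCWE-045, NRCWE-044 and NRCWE-043, and 0.12 to 1.67 in control lungs. They were lowest at 18 µg of NRCWE-044, at 0.01 to 0.57, where Gpr183, Ch25h and Cyp7b1 had their lowest means too. The means of the 3 genes lay below the next group by only 0.01, 0.35 and 0.20. Each gap was within the pooled SD (0.26, 0.45 and 0.47). The 18 µg group of NRCWE-044 also had the lowest median scores of T cells (-0.53), dendritic cells (0.99), monocytes and interstitial macrophages (1.20) and neutrophils (1.20). It had the highest median scores of adipose tissue (1.98), fibroblasts (1.28), lung epithelium (5.48) and liver (0.79). There, 4 of the 9 B cell markers were lower than at 18 µg of NRCWE-043, in a comparison that called 5.46% of all features lower. Of 9 dendritic cell markers, 2 (Batf3 and Itgax) rose at 54 µg of NRCWE-044, and Batf3 rose while Siglech fell at 54 µg of NRCWE-043. Of 9 T cell markers 0 passed in limma in the 3 comparisons at 54 µg. Over all features 5.99% were called at 54 µg of NRCWE-044 and 10.3% at 54 µg of NRCWE-043, so nothing is read from these few calls. The part of these cells in the values of Gpr183 was not tested.

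Markers of heart muscle and adipose tissue differed widely between arrays of 1 group. Heart muscle scores were 0.07 to 2.46, 0.21 to 2.46 and 0.11 to 1.89 at 54 µg of NRCWE-045, NRCWE-044 and NRCWE-043, and 0.01 to 2.99 in control lungs, where sample 29 had the highest. Adipose scores were 0.01 to 0.86, 0.14 to 4.99 and 0.02 to 4.12 in the same treated groups, and 0.58 to 1.65 in control lungs. At 18 µg of NRCWE-044 the adipose scores were 0.89 to 3.05. With both scores as covariates, an alternative chosen after seeing the data, the changes at 54 µg against control were 1.48, 1.32 and 1.38 for Ch25h and 1.57, 1.79 and 1.31 for Cyp7b1 with NRCWE-045, NRCWE-044 and NRCWE-043, and the same 7 member changes were called.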

How the data were processed

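Lung RNA of 35 samples (Cy5) was hybridised against universal mouse reference RNA (Cy3) in the same orientation on every array, with 200 ng of RNA per array. The authors deposited spot intensities, extracted per the file headers with Feature Extraction 11.0.1.1, and log2 ratios. How the authors normalized those ratios is not stated in the labels or headers. These deposited log2 ratios served as an alternative. They correlated at 0.994 to 1.00 with loess-normalized ratios computed here without background correction, which is not the main setting. Background correction of the median intensities used normexp with an offset of 50, followed by loess within arrays, in limma 3.58.1 under R 4.3.3, with data.table (version 1.17.8). Spots that the scanner software marked non-uniform or population outliers were dropped (1403 probe values missing, 600 tested features with a missing value, none of them a member), and 0 Cy5 values were saturated. Of 55681 probes, 27235 matched a symbol by accession in the RefSeq annotation of GRCm38.p6. The filter kept 34295 probes whose Cy5 signal was well above background on 3 or more arrays in any group of 5, and the brightest probe stood for a gene. Arrays had 42.8% to 69.3% of probes well above background, and precision is limited by 5 arrays per group.

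One model over all 35 arrays (lmFit and eBayes) gave 18 comparisons, each adjusted by Benjamini-Hochberg over 25517 features; the procedure was tested on simulated data. Intervals are 95%. The members and lists were chosen with earlier results of these data known. Named genes follow a rule: the members, the 5 features most correlated with each, and per list and comparison up to 4 called genes with the largest change, otherwise the 2 largest; some genes that the rule names are not reported here. Genes not tested include Cyp7a1, Cyp8b1, Cyp11a1, Hsd11b2, Akr1d1, Osbpl7, Abcg5, Abcg8, Ifnb1 and Tlr3, and of the markers Scgb3a2, Xcr1, Ccl22, Ly6c2, Ly6g, Epx, Lep, Pln and Apoa1. Alternatives were other scalings, filters and probe rules, array weights, the slide as a block, fits on the compared groups alone and leaving out arrays.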

Additional observations from a re-analysis of the deposited data

Results flagged for a closer look

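In 28 sets of 5 arrays (4 genes in 7 groups), 2 arrays stood apart from the rest of their group by Dixon's criterion, for which chance gives about 1 in 20. Cyp7b1 was highest in control sample 29, at a log2 ratio of 2.97, and the other 4 controls lay between 1.77 and 2.10. Hsd3b7 was lowest in sample 1 of NRCWE-045 at 18 µg, at 0.30, with the other 4 arrays between 0.78 and 0.94. In no pair of groups did every array move in opposite directions.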

How the results depend on the processing

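Of 552 values of the 24 member changes against control under alternatives, 550 stayed within 1 replicate SD and 0 turned a called change; the exceptions were Gpr183 at 18 µg of NRCWE-045 (0.17 with Cy5 alone, -0.16 otherwise) and Hsd3b7 at 54 µg of NRCWE-043 (0.016 with median centring). The 7 calls against control became 4 with median centring, 6 with Cy5 alone, 9 with the slide as a block, 9 without controls 7 and 29, and 5 to 8 without 1 array. The calls gained were Ch25h at 18 µg of NRCWE-043 (without control 29, alone or with 7) and Hsd3b7 at 18 µg (slide, without control 7, alone or with 29) and 54 µg (slide) of that material. The 2 dose calls became 3 without background correction, 3 in the fit on the compared groups and 2 to 3 without 1 array. At 54 µg of NRCWE-045, Ch25h was called in 14 of 23 alternatives and Cyp7b1 in 17 of 23.

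Between materials, the 1 call became 4 with array weights, 0 with median centring, 2 without background correction, 3 with the slide as a block, and 1 to 2 without 1 array (2 without sample 5, 16 or 23). With Cy5 alone, the Gpr183 dose change of NRCWE-045 was -0.000116 and its difference between NRCWE-045 and NRCWE-043 at 18 µg 0.14. Both use the 18 µg group of NRCWE-045, where sample 25 had a Cy3 intensity of 247.5 for Gpr183. Osbpl2 at 54 µg of NRCWE-043 was 0.019 with median centring.

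Pathway genes called at 54 µg of NRCWE-045 (4) were 1 with Cy5 alone, 8 with array weights, 1 without controls 7 and 29, 0 with median centring, 2 in the fit on its own groups and 0 to 5 without 1 array (0 without sample 2, 7, 8, 14, 30 or 32, 1 without 15, 2 without 35). At 54 µg of NRCWE-044 (19) they were 12 without controls 7 and 29, 0 with median centring and 10 to 21 without 1 array (10 without sample 34). At 54 µg of NRCWE-043 (18) they were 5 with median centring and 13 to 19 without 1 array. At 18 µg of NRCWE-043 (8) they were 5 with Cy5 alone, 13 without controls 7 and 29, 0 with median centring, 0 in the fit on its own groups and 2 to 10 without 1 array (5 without sample 2 or 15, 4 without 5, 3 without 10, 2 without 30). With Cy5 alone 9 rose and 8 fell at 54 µg of NRCWE-044, and 11 rose and 6 fell at 54 µg of NRCWE-043. The causes were not tested, and the alternatives without arrays or groups hold fewer samples.

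Correlations within groups were, with median centring, 0.55 for Ch25h and Hsd3b7, 0.41 for Cyp7b1 and Hsd3b7 and 0.45 for Hsd3b7 and Gpr183; with slide means removed, 0.36 for Ch25h and Gpr183, -0.51 for Cyp7b1 and Hsd3b7 and -0.18 for Hsd3b7 and Gpr183; and with heart muscle and adipose scores as covariates, added after seeing the data, 0.011 for Ch25h and Hsd3b7 and 0.016 for Cyp7b1 and Hsd3b7. No paired analysis was possible because the groups share no replicate numbers; the slide was fitted as a block instead.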
